A study of Rattus norvegicus with 2 samples.

Results

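The 9 genes described here make, cut and bind hyaluronan: the synthases Has1, Has2 and Has3, the hyaluronidases Hyal1 and Hyal2, the receptors Cd44, Lyve1 and Hmmr, and the secreted hyaluronan-binding protein Tnfaip6. They were taken by gene symbol from the platform annotation of the arrays, which gave 12 probes of 40012 in all. These 12 probes cover all 9 genes of the 15611 genes with a name, 6 of them by 1 probe and Cd44, Lyve1 and Tnfaip6 by 2. No filter on low values was applied, so each probe entered the test.

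Hyaluronan is a long unsulphated sugar chain of the extracellular matrix, extruded through the cell membrane by the synthases from UDP-glucuronic acid and UDP-N-acetylglucosamine. Hyal2 cuts long chains at the cell surface and Hyal1 digests the fragments in lysosomes. Cd44 is the broadly expressed surface receptor, Lyve1 is a receptor of lymphatic endothelium and of some macrophages, and Hmmr also acts at the mitotic spindle. In the lung, hyaluronan lies in the interstitium and around vessels and airways.

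RNA of uncultured, untreated rat lung cells (group lung, 2 samples) was labelled with Cy3 and hybridised together with RNA of mix1, labelled with Cy5, on 2-colour Agilent arrays. Mix1 was a mixture of rat bone marrow cells, cultured in αDMEM, and primary ear fibroblasts, cultured in DMEM, in both cases with 10% fetal bovine serum, heat-inactivated for the marrow cells. The sources used here do not give the strain, age or number of the rats or the proportions of the mixture. Whether each lung sample was a different animal is not stated either. The p-values therefore cover the spread of these lung samples and nothing wider, and that spread may be technical. The control was 1 RNA, whose own spread is left out, and because the dye orientation was the same throughout, dye effects cannot be told apart from differences between the RNAs.

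Each value is a log2 ratio of lung over mix1 for 1 probe on 1 array; it is a difference between the RNAs and not a level, and the number of arrays limits its precision. The direction is likely and not stated outright: it rests on the wording of the series and on 6 lung epithelial genes, whose 7 probes lay between 3.94 and 7.02 and were used to settle the sign. With the sign turned, every direction below would be the opposite. In bulk RNA, fewer cells of a type and less RNA per cell cannot be told apart. In limma's moderated test against 0, with Benjamini-Hochberg adjustment over all 40012 probes, 33.2% of probes were higher and 42.7% lower in lung at an adjusted p under 0.05. Of these calls, 43.8% were in the higher direction. Centring each array on its median raised the typical probe by 0.19 and this share to 54.7% (15411 higher, 12774 lower). Because passing is so common, the size of a ratio is given beside each call, with "at least 2-fold in both arrays" as a second, descriptive criterion.

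The synthases and Tnfaip6 were lower in lung, Hyal1 and Hyal2 were higher, and the receptors went separate ways. Of the 12 probes, 4 were higher and 7 lower by limma, together 11 of 12 against 75.9% of all probes. At least 2-fold in both arrays, 4 were higher and 5 lower, or 9 of 12 against 31.3% of all probes, of which 17.8% were higher and 13.4% lower. Limma's treat, which tests against a 2-fold change, called 8 of the 12, against 23.1% of all probes. The genes were chosen with earlier results of these data known, so these shares describe the 12 probes and test nothing about them as a set. All 12 had the same sign on both arrays, but the share of all probes that did so was not counted.

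**Figure D1:**
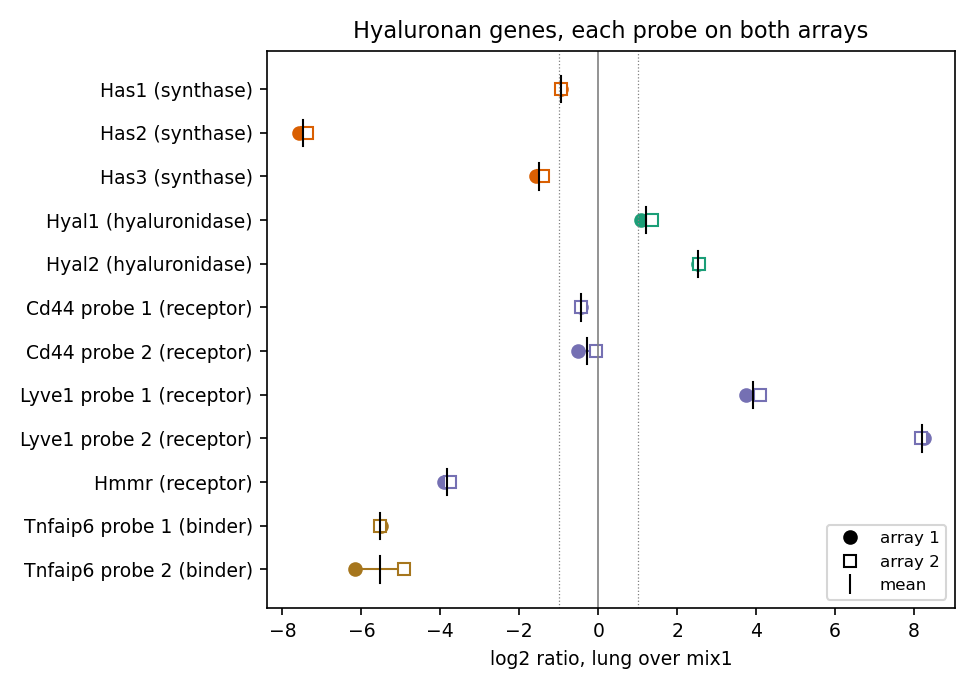
Log2 ratio of lung over mix1 (horizontal axis) for each of the 12 probes (rows, grouped by role), with array 1 as filled circles, array 2 as open squares and the mean as a black tick; dotted lines mark a 2-fold difference. Lyve1 probe 2 lies farthest right at 8.21 and Has2 farthest left at -7.48, and the arrays are farthest apart for Tnfaip6 probe 2 (-6.15 and -4.93).

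The promoters of the members at the ends of this order, and of the hyaluronidase with the larger ratio, are shown because these genes carry the widest differences between lung and mix1. RefSeq's promoter table (build GRCr8) held 7 of the 9 genes; Has2 and Has3 were not among them. Printed are the 250 bases before the annotated start of Lyve1 (chr1:174410978-174411227, minus strand), Hyal2 (chr8:117121552-117121801, plus strand), Hmmr (chr10:25665216-25665465, minus strand) and Tnfaip6 (chr3:56911148-56911397, plus strand), each 5′ to 3′ along the gene. Capitals mark matches, on either strand, to the TATA box (TATAAA), the CCAAT box, the GC box (GGGCGG), the cell cycle element CHR (TTTGAA), the AP-1 site TGANTCA or the NF-kB consensus.
Lyve1: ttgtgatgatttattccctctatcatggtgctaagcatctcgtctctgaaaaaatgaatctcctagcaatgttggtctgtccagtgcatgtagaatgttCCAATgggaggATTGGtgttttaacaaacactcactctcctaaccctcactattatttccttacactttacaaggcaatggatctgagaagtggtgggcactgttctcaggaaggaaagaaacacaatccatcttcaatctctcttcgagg
Hyal2: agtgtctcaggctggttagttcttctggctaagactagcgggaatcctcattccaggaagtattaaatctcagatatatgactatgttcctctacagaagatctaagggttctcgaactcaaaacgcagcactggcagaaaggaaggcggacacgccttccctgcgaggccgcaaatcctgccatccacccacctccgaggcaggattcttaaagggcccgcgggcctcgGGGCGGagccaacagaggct
Hmmr: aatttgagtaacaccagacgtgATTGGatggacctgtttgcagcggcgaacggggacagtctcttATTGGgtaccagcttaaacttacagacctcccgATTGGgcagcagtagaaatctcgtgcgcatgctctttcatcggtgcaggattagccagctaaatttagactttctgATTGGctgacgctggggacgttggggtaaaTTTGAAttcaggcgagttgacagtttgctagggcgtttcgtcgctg
Tnfaip6: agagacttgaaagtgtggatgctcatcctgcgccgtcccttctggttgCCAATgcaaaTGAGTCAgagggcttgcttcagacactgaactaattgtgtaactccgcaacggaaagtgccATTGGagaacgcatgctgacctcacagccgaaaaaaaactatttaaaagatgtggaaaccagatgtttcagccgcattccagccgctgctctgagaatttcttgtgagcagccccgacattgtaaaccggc

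The Hmmr window held 4 CCAAT matches, all in reverse orientation (ATTGG), starting 228, 185, 152 and 76 bases before the start, and a CHR match 46 bases before it. The CHR match was not particular to Hmmr. Among the windows not printed, Has1 had one at 45 bases and Cd44 one at 43 bases, both in reverse orientation. The Tnfaip6 window held an AP-1 match 192 bases before the start, with CCAAT matches at 202 and 131 bases. In the Lyve1 window a forward and a reverse CCAAT match lay at 151 and 140 bases, and in the Hyal2 window a GC box lay at 20 bases. Windows of this length from 33469 promoters held a CCAAT match in 34.0% of cases, a GC box in 30.5%, a CHR match in 16.2%, TATAAA in 12.9%, an AP-1 match in 6.34% and an NF-kB match in 3.54%. No TATAAA or NF-kB match was found in the windows of these 7 genes, and no matches overlapped. Lyve1 had 2 CpG dinucleotides and a GC content of 41.6%, lower than in most promoters (17.3% had less). Hmmr had 14 CpGs, Hyal2 had 12 and Tnfaip6 had 10, against a median of 5 over all promoters. A match is a description of these letters and not a site shown to act.

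Among the synthases, Has2 was far lower in lung and Has1 and Has3 moderately so. Has2, the main synthase of many mesenchymal cells, lay at -7.59 on array 1 and -7.37 on array 2. Its mean of -7.48 ± 0.15 (SD, n = 2) ranked 18th from the bottom of 40012 (probe A_44_P341877). This is a 179-fold lower ratio, with an adjusted p of 0.00193 in limma. Has3, which makes shorter chains in vitro, lay at -1.57 and -1.41 (mean -1.49 ± 0.11, 2.81-fold lower, adjusted p 0.00327). Has1 lay at -0.94 and -0.95 (mean -0.94 ± 0.01, adjusted p 0.00308), a 1.92-fold difference that was the same on both arrays to within 0.01 and stayed under 2-fold. Has3 passed treat (adjusted p 0.0261) and Has1 did not (adjusted p 1.0). Between Has3 and Has2 the ratios were separated by Hmmr and Tnfaip6 in the order of the probes. The sizes of such large ratios depend on how background was handled where 1 channel is dim, a step that the sources used here do not describe.

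Hyal1 and Hyal2 were both higher in lung. Hyal2, the surface enzyme anchored by a lipid tail, lay at 2.52 and 2.56 (mean 2.54 ± 0.03), or 5.82-fold higher, with an adjusted p of 0.00193. Hyal1, the lysosomal enzyme, lay at 1.09 and 1.35 (mean 1.22 ± 0.18), or 2.32-fold higher, with an adjusted p of 0.00723. Hyal2 exceeded Hyal1 on each array, by 1.44 and 1.21, and their arrays did not overlap. Hyal2 passed treat (adjusted p 0.00319) and Hyal1 did not (adjusted p 0.23).

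The receptors gave the highest ratio of the members, a low one and one near 0. Lyve1 probe 2 (A_44_P588315) lay at 8.24 and 8.18, a mean of 8.21 ± 0.05 that was 296-fold higher in lung and the 6th highest of all 40012 probes (adjusted p 0.00193). Lyve1 probe 1 (A_44_P156690) lay at 3.74 and 4.10, a mean of 3.92 ± 0.25, or 15.1-fold higher (adjusted p 0.00252). Both probes were therefore much higher in lung on both arrays, but their sizes differed by 4.29 on the log2 scale, by 4.50 on array 1 and by 4.08 on array 2. A distance that large between probes of 1 gene was uncommon: 58 of 3767 genes with several probes, or 1.54%, had a larger one, and the median gene had 0.72. Averaging the probes gives 6.06, a value that neither probe showed. The annotation gives the same transcript for both probes, and the sources used here do not say which part of it each probe reads.

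**Figure D2:**
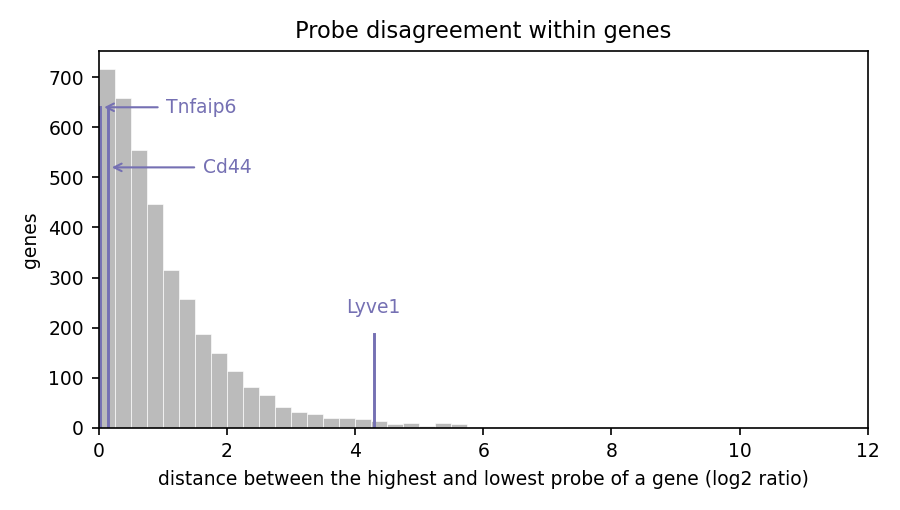
Number of genes (vertical axis) by the distance between their highest and lowest probe in log2 ratio (horizontal axis), for the 3767 genes with several probes, with lines for the 3 hyaluronan genes that have 2 probes. Tnfaip6 (0.02) and Cd44 (0.14) lie in the lowest bin and Lyve1 (4.29) in the thin right tail.

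Cd44 was close to equal in lung and mix1. Its probe 1 (A_43_P11621) lay at -0.43 on both arrays (mean -0.43 ± 0.0029, 1.35-fold lower) and passed limma with an adjusted p of 0.00853. Probe 2 (A_44_P491308) lay at -0.51 and -0.06 (mean -0.29 ± 0.32) and did not pass (adjusted p 0.20). Neither reached 2-fold on either array. With array medians subtracted, probe 1 moved to -0.24 (adjusted p 0.0384), and probe 2 lay at -0.35 on array 1 and 0.15 on array 2, so that its arrays fell on opposite sides of 0. The median of all 40012 probes was -0.20, close to both Cd44 probes.

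Hmmr, a hyaluronan-binding protein that also organises spindle microtubules, lay at -3.91 and -3.76 (mean -3.84 ± 0.11), or 14.3-fold lower in lung (adjusted p 0.00193). Its ratio was the 375th lowest of 40012 and lay clear of its neighbours in the order of members, 2.35 below Has3 and 1.68 above the nearer Tnfaip6 probe. Mitosis genes were mostly lower too. Of 17 probes of 12 mitosis genes, 16 were lower and none higher, against 42.7% and 33.2% of all probes. Those 17 probes had a median of -2.40 and a range from -4.28 (Kif20a) to -0.04 (Aurkb). The part of dividing cells in the Hmmr ratio was not tested.

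Tnfaip6 encodes TSG-6, a secreted protein induced by inflammatory signals that transfers heavy chains of inter-alpha-inhibitor onto hyaluronan. Probe 1 (A_44_P371635) lay at -5.51 and -5.53 (mean -5.52 ± 0.02, 45.8-fold lower, adjusted p 0.00193). Probe 2 (A_44_P558540) lay at -6.15 and -4.93 (mean -5.54 ± 0.87, 46.6-fold lower, adjusted p 0.00669). The probes had nearly the same mean, 0.02 apart, although probe 2 differed between the arrays more than 98.6% of all probes did. These means ranked 107th and 106th from the bottom.

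Over the whole order from Lyve1 down to Has2, 11 steps separate adjacent probes, and in 2 of them the arrays overlapped: between the 2 probes of Cd44 and between the 2 probes of Tnfaip6. At the other 9 steps the arrays did not overlap, the smallest gap being 0.51 between Cd44 probe 1 and Has1. With 2 arrays, overlap is only a coarse reading of spread.

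**Figure D3:**
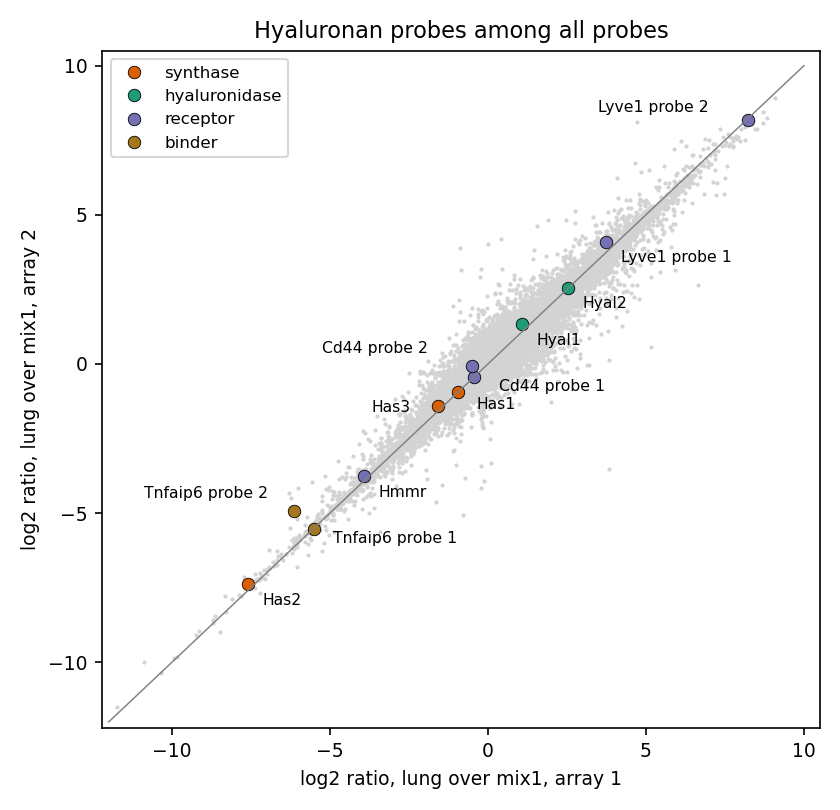
Log2 ratio of lung over mix1 on array 1 (horizontal axis) against array 2 (vertical axis) for all 40012 probes (grey) and the 12 hyaluronan probes (coloured by role), with the line of equality. The 12 probes run along the line from Has2 (-7.48) to Lyve1 probe 2 (8.21), and Tnfaip6 probe 2 (-6.15 and -4.93) lies farthest from it.

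The other genes of hyaluronan metabolism and binding were taken from 8 lists, chosen with earlier results of these data known. Besides the 9 genes, these held 63 genes, of which 56 had a probe. Of their 81 probes, 24 were higher and 45 lower by limma, against 33.2% and 42.7% of all probes, and 12 were higher and 24 lower by at least 2-fold in both arrays, against 17.8% and 13.4% of all probes. Their median was -0.44 against -0.20 for all probes.

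Enzymes that supply the UDP-sugars of hyaluronan were mostly lower in lung, like the synthases. Of 22 probes of 14 genes, 18 were lower and 2 higher, against 42.7% and 33.2% of all probes. Their median was -1.08. Ugdh, which makes UDP-glucuronic acid, lay at -2.63 and -2.66 (mean -2.65 ± 0.02, 6.27-fold lower). On the hexosamine branch, Gfpt2, an isoform of its first enzyme, lay at -4.13 and -3.80 (mean -3.97 ± 0.23), and the mutase Pgm3 had probes at -3.43, -3.40 and -2.30. The 2 higher probes were small in size: 1 of the 3 probes of Ugp2, which makes UDP-glucose, at 0.35, with the others at -0.44 and -0.43, and Gnpda2, which runs the branch backwards, at 0.23.

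Among genes of hyaluronan breakdown, Hyal1 and Hyal2 had the only probes at least 2-fold higher in both arrays. Of 12 probes of 11 genes, 3 were higher and 7 lower (median -0.34), against 33.2% and 42.7% of all probes. Centring the arrays left 3 higher but only 4 lower. The third higher probe was a small one, a probe of the surface protein Cemip2 at 0.24, whose other probe lay at -0.65. Cemip, a hyaluronan-depolymerising protein of fibroblasts, lay at -5.11 and -4.19 (mean -4.65 ± 0.65, 25.1-fold lower, adjusted p 0.0057). It thus lay far on the other side of 0 from Hyal2 on both arrays. The lysosomal hexosaminidase subunit Hexa lay at -1.53 ± 0.06 and Hyal3 at -0.39 ± 0.04. The hyaluronidases Hyal4, Hyal5, Hyal6 and Spam1, named after their values were seen, lay between -0.60 and 0.23, and none reached 2-fold on either array. The arrays of Hyal6 (0.73 and -0.27) and of Hyal4 (-0.17 and 0.15) fell on opposite sides of 0.

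**Figure D4:**
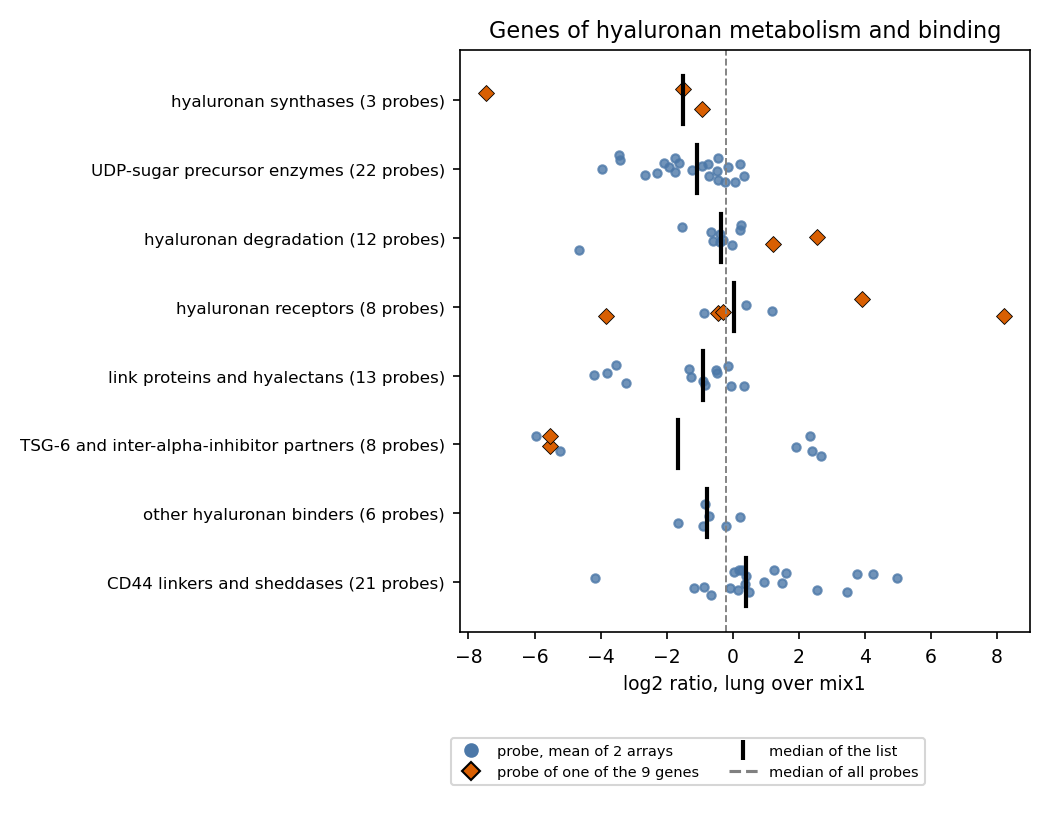
Mean log2 ratio of lung over mix1 (horizontal axis) of each probe in 8 lists of hyaluronan genes (rows), with probes of the 9 genes as orange diamonds, list medians as black bars and the median of all probes (-0.20) as a dashed line. Lists of synthesis lie to the left, and the list of TSG-6 partners splits into 4 probes below -5 and 4 between 1.92 and 2.68.

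Of the remaining receptors, Stab2, a scavenger receptor that clears hyaluronan in sinusoidal endothelium, lay at 1.46 and 0.92 (mean 1.19 ± 0.38, adjusted p 0.0242), and so reached 2-fold on array 1 only. The pattern recognition receptor Tlr2, reported to respond to hyaluronan fragments, lay at -0.88 ± 0.02. Tlr4, reported to do the same and named after its values were seen, lay on the other side of 0 at 0.39 ± 0.0039 (adjusted p 0.0102). Stab1 and Layn had no named probe. Of the 8 receptor probes, members included, 4 were higher and 3 lower, against 33.2% and 42.7% of all probes.

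Link proteins and the hyaluronan-binding proteoglycans were mostly lower, with 9 of 13 probes lower and 1 higher (median -0.90). Over all probes, 42.7% were lower and 33.2% higher. Versican (Vcan), the large proteoglycan of soft matrix, had probes at -4.20 ± 0.04 and -3.52 ± 0.04, and the link protein Hapln3 lay at -3.80 and -3.81. Hapln1, the cartilage link protein, lay at -0.83 ± 0.05. The higher probe, at 0.35, was 1 of 3 for the brain proteoglycan Bcan, whose others lay at -1.27 and -0.49.

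The partners of TSG-6 split by role. Of the 9 genes listed, 7 had a probe. Of their 8 probes, the 2 of Tnfaip6 included, 4 were higher and 4 lower, and all 8 reached 2-fold on both arrays. Over all probes, 33.2% were higher and 42.7% lower, and 31.3% reached 2-fold on both arrays. The matrix proteins that bind TSG-6 were low with it: pentraxin 3 (Ptx3) at -5.40 and -5.09 (mean -5.24 ± 0.22) and thrombospondin 1 (Thbs1) at -6.00 and -5.88 (mean -5.94 ± 0.09). The listed genes of the inter-alpha-inhibitor family that had a probe were higher. Ambp, which encodes the bikunin chain, lay at 2.82 and 2.54 (mean 2.68 ± 0.20). The heavy chain genes Itih1 and Itih3 lay at 2.39 ± 0.0038 and 1.92 ± 0.23. Itih4, named after its values were seen, lay at 3.05 and 1.64 (mean 2.35 ± 0.99, adjusted p 0.0386), with the arrays well apart.

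Genes that act on Cd44 ranged from -4.18 to 4.97. Of 21 probes for linkers, sheddases and splicing factors, 14 were higher and 4 lower (median 0.40), against 33.2% and 42.7% of all probes. The epithelial splicing factors Esrp1 and Esrp2, which promote the variant exons of Cd44, lay at 4.97 ± 0.11 and 4.26 ± 0.07. Mmp14, a membrane protease that sheds Cd44, lay at -4.17 and -4.20 (mean -4.18 ± 0.02), and the lowest of 3 probes of Ctnnb1 at -1.18 ± 0.06. The other sheddases were higher by small amounts, Adam10 at 0.95 and 0.50 and Adam17 at 0.19. Of the linkers that tie Cd44 to actin, ezrin (Ezr) had probes at 2.55 and 1.26 and radixin (Rdx) at 1.48 and 0.40. Moesin (Msn) had probes at 0.05, 0.17 and 0.38, of which only the last passed limma. With array medians subtracted they lay at 0.24, 0.36 and 0.56, and all passed limma as higher (adjusted p 0.0424, 0.0135 and 0.00475). In the same list, Ank3 had probes at 3.77, 3.46 and 1.61 and Nf2 at 0.29 and -0.65. The Adam genes, Ezr, Rdx, Msn, Ank3 and Nf2 were named after their values were seen. No value here separates Cd44 isoforms. In the list of other hyaluronan binders 4 of 6 probes were lower and none higher, against 42.7% and 33.2% of all probes. C1qbp lay at -1.66 and -0.91 and Susd5 at -0.85 ± 0.01.

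Markers of cell types were read beside these genes, and their part in the ratios was not tested. For the counts that follow, 33.2% of all probes were higher and 42.7% lower by limma. Beside Has2 and Tnfaip6, all 15 probes of 10 genes of cultured stroma were lower (median -6.06, from -9.16 to -1.01). Beside Lyve1, 10 of 13 lymphatic endothelial probes were higher and 2 lower (median 1.65, from -2.61 to 8.05). Mmrn1 lay at 8.05 and Ccl21 at 4.35, whereas the defining lymphatic factor Prox1 lay at -0.05 ± 0.36 and did not pass. Some of the higher probes are of genes not confined to lymphatic endothelium, among them Mmrn1, Tie1 (3.21 and 1.33) and Pdpn (0.64). The 2 lower probes were both of Foxc2, at -2.61 and -0.52. All 10 blood endothelial probes were higher (median 3.98, from 2.45 to 6.04). Macrophage markers were mixed, with 5 of 11 probes higher and 2 lower (median 0.72, from -2.49 to 2.91), and centring the arrays made that 7 and 2. All 10 leukocyte probes (median 2.63), all 5 erythroid probes (median 3.39) and 8 of 9 mesothelial probes (median 3.74) were higher in lung. The mesothelial probes ranged from 0.03 (Lrrn4, which did not pass) to 7.73 (Gpm6a). They include the epithelial keratins Krt8 (3.71) and Krt18 (5.30 and 5.15), which are not confined to mesothelium. Msln lay at 0.99 and Wt1 at 4.13 and 0.64. Intensities were not used here, so the level of a marker in either RNA is not given.

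**Figure D5:**
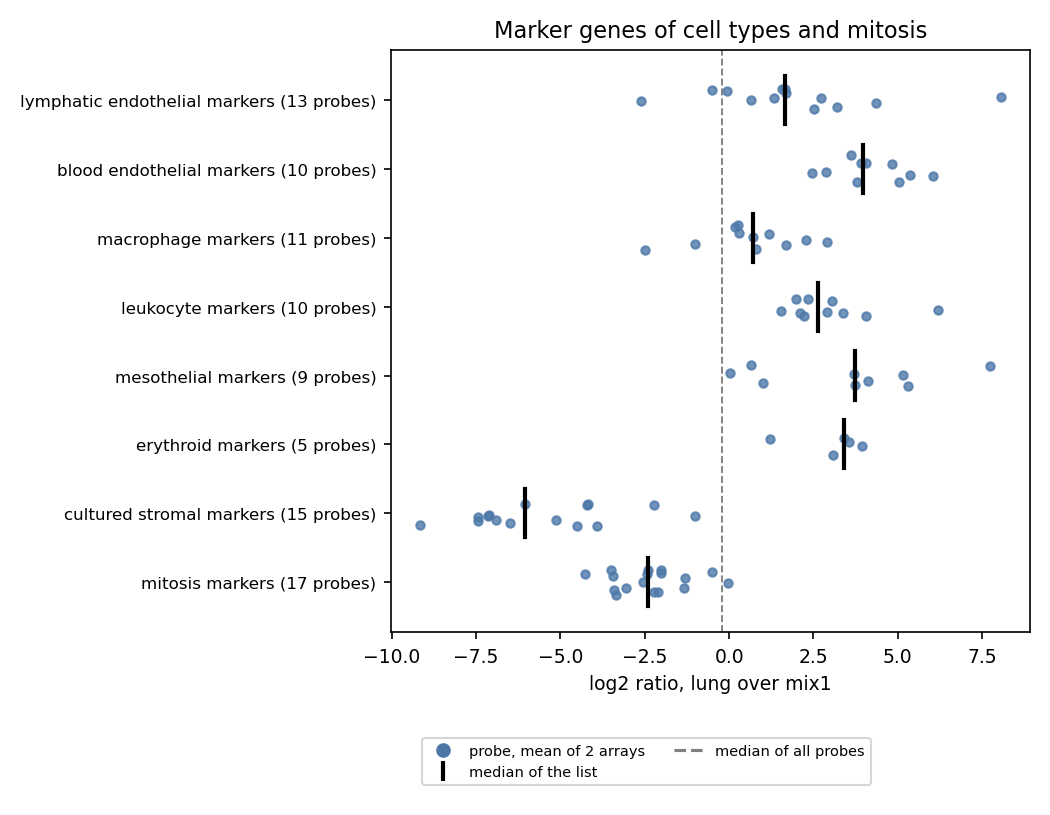
Mean log2 ratio of lung over mix1 (horizontal axis) of each probe in 8 lists of markers (rows), with list medians as black bars and the median of all probes (-0.20) as a dashed line. Stromal and mitosis markers lie left of 0 and the blood endothelial, leukocyte and erythroid markers right of it.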

How the data were processed

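The arrays compared lung (Cy3) with mix1 (Cy5). Per the submitters' processing notes the software was Agilent Feature Extraction. Its version, background correction and dye normalization were not given in the sources used here. The authors' deposited values were taken as log2 ratios; no source states the base, which was inferred from their range of -11.74 to 9.09. The array medians were -0.16 and -0.21, and what the values were centred on stays unknown. Platform annotation named 20417 of 40012 probes, each with 1 symbol, updated through RefSeq accessions (16987 probes), current symbols (3035) or synonyms (387), with 8 kept as they stood; the other 19595 are unnamed here.

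In R 4.3.3, the lmFit and eBayes functions of limma 3.58.1 tested the mean ratio of every probe against 0, at a Benjamini-Hochberg adjusted p under 0.05. The fit had 1 residual and 1.31 prior degrees of freedom. It was also run on simulated ratios, with variances drawn from its own prior and few probes away from 0. That run cannot show how the test behaves where most probes pass, as here. Values are the mean ± SD of 2 arrays. The members and all lists were chosen with earlier results of these data known. All members were named, and from each list the 2 highest and 2 lowest called probes whose arrays shared a sign, plus genes chosen by role. Alternatives tried were treat, robust eBayes, centring arrays on their medians, between-array scaling, averaging probes by gene, named probes only, an adjusted p under 0.01 and leaving out each array. No search for genes of like pattern was made, since 2 arrays of 1 comparison give none.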

Additional observations from a re-analysis of the deposited data

How the results depend on the processing

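The member calls kept their direction under every alternative run. By limma, 4 probes were higher and 7 lower under subtraction of array medians, scaling between arrays, robust eBayes, named probes only and an adjusted p under 0.01. Treat called 3 and 5, losing Hyal1, Has1 and Cd44 probe 1. With probes averaged by gene, 3 genes were higher and 6 lower, among them Cd44 at -0.36 (adjusted p 0.0447). A single array allows no test. Without replicate 1 or without replicate 2, 4 member probes were at least 2-fold higher and 5 lower. Of all 40012 probes, 7754 were at least 2-fold higher and 5873 lower without replicate 1, and 7857 and 6249 without replicate 2. No paired analysis was possible because there is 1 group.

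Among other pathway probes, treat left 11 higher and 20 lower, averaging left 15 genes higher, and an adjusted p under 0.01 left 14 higher. Over all 40012 probes, treat left 5458 higher and 3785 lower, and the stricter threshold 9767 higher and 10925 lower. The 20417 named probes gave 6915 higher and 10060 lower. Of 15611 averaged genes, 5142 were higher and 7765 lower, or 2572 and 2466 at least 2-fold in both arrays. These counts fall because fewer features are tested. With array medians subtracted, the sign turned for Ctnnb1 (0.09, probe 1), Hapln2 (0.15 and 0.03), Hk1 (0.05, probe 1) and Hyal4 (0.17), none of them called as deposited. Averaging turned single probes of Bcan (-0.47), Cemip2 (-0.21), Nf2 (-0.18), Uap1 (-0.54) and Ugp2 (-0.17), where probes of a gene had opposite signs.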

Other observations

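The hyaluronidase genes lie side by side in 2 clusters of the RefSeq gene order (GRCr8, protein-coding genes). In the order Tusc2, Hyal2, Hyal1, Naa80, Hyal3, Ifrd2, the log2 ratios were -0.78 for Tusc2, 2.54 for Hyal2, 1.22 for Hyal1, -0.39 for Hyal3 and -0.21 for Ifrd2, with no named probe for Naa80. Rassf1, the next gene beyond Tusc2, lay at 0.17, and Zmynd10, a cilia gene beyond it, at 2.63 as the mean of its 2 probes. In the other cluster Hyal6 (0.23), Hyal4 (-0.01), Spam1 (-0.30) and Hyal5 (-0.60) follow each other. For Hyal6 and for Hyal4 the arrays had opposite signs. Tmem229a, the next gene on one side, had 3 probes of unlike sign with a mean of 1.43. The neighbouring heavy chain genes Itih4 (2.35), Itih3 (1.92) and Itih1 (2.39) were all higher in lung. Mustn1 before them was lower at -0.30, and Nek4 after them was higher at 0.69. These neighbours were looked at after the values were seen.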
